A study of Mus musculus with 16 samples.

Results

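The integrated stress response was examined through 10 of its genes in mouse livers that lacked selenoproteins in hepatocytes. The genes were the transcription factor gene Atf4 (ENSMUSG00000042406) and 9 genes known to be induced with it or by it, which are Atf3 (ENSMUSG00000026628), Ddit3 (ENSMUSG00000025408), Trib3 (ENSMUSG00000032715), Asns (ENSMUSG00000029752), Chac1 (ENSMUSG00000027313), Fgf21 (ENSMUSG00000030827), Sesn2 (ENSMUSG00000028893), Psat1 (ENSMUSG00000024640) and Phgdh (ENSMUSG00000053398). They were selected by gene symbol from the 18209 genes with an identifier in the expression table, and all 10 were found. The selection rule used symbols and no measured value, but the genes were proposed with earlier results of these data known.

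In the integrated stress response, kinases that sense amino acid shortage, misfolded protein in the endoplasmic reticulum, heme deficiency or double-stranded RNA phosphorylate the translation factor eIF2. General translation then declines, while the Atf4 mRNA is translated more, so that the level of the Atf4 mRNA alone does not report how much ATF4 protein is made. ATF4 induces genes of amino acid synthesis and transport, aminoacyl-tRNA synthetases and further transcription factors, and in liver it is a known activator of the hormone gene Fgf21.

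The livers came from 16 mice aged 20 days, 4 of each genotype, and their RNA was sequenced. Every mouse carried floxed alleles of Trsp, which encodes the selenocysteine tRNA needed to make selenoproteins. The control genotype was Trsp fl/fl, and Trsp fl/fl::AlbCre mice, called the Trsp knockout here, carried in addition a Cre recombinase driven by the albumin promoter, which deletes Trsp in hepatocytes and leaves it in the other cells of the liver. The Keap1 mutant, Keap1 C226S&C613S homo::Trsp fl/fl, had serine in place of a pair of cysteines with which KEAP1, the repressor of the antioxidant transcription factor NRF2, senses oxidants. The compound mutant, Keap1 C226S&C613S homo::Trsp fl/fl::AlbCre, carried both changes. The design asks what the loss of selenoproteins does with and without these KEAP1 sensor cysteines. All libraries are labelled male.

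Values below are normalized read counts per gene, which are reads scaled by the size factor of their library, and all comparisons used limma on the deposited log2(normalized count + 4) values. Recovered reads per library ranged from 11386713 to 19164095. A log2 fold change (log2FC) on this scale understates the change of weakly expressed genes. Each is given with its standard error (SE) and a p-value adjusted by Benjamini-Hochberg over all genes tested. In bulk liver RNA, fewer cells of a type and less RNA per cell cannot be told apart. Trsp itself is not a row of the table, and 2 selenoprotein mRNAs served as a check of the labels: Gpx1 ranged from 2759 to 4060 in the Trsp knockout and from 2888 to 3699 in the compound mutant, below every library of the control (8692 to 18758) and of the Keap1 mutant (10372 to 15836), and Selenow was likewise lower without overlap. Replicates 1 and 4 of the compound mutant stood apart in other ways. Replicate 1 held 28799 reads of Xist, against 22 to 50 in every other library, so it went against its label of male, and it had the lowest hepatocyte marker sum of all libraries (855743) and the highest erythroid marker sum (96402). Replicate 4 of the compound mutant had the lowest value of its genotype for 8 of the 10 genes. Where leaving out either of them moved a value of the 10 genes across an adjusted p of 0.05, the value without it is given beside the result. Replicate 4 was singled out by its low values of these same genes, so fits without it favour larger effects and smaller p-values. Those fits describe the dependence on that liver and are not evidence of a difference.

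The promoters of 4 of the 10 genes held a C/EBP-ATF element, the composite site through which ATF4 and a C/EBP partner bind DNA. The 250 bases before the annotated start were read for each gene from RefSeq (build GRCm38.p6) for all 10 genes, with 2 starts for Psat1. The element was searched as TGATGNAA on both strands. It was present for Atf3, Chac1, Asns and Fgf21, and in 3.45% of 32851 promoter windows of the same length. These 4 windows are shown because they hold the best known binding site of the pathway, with the matched bases in capitals and the transcription start just after the last base. The first run of capitals in Asns is a match to the antioxidant response element core described after the windows.

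Asns, chr6:7693210-7693459, minus strand: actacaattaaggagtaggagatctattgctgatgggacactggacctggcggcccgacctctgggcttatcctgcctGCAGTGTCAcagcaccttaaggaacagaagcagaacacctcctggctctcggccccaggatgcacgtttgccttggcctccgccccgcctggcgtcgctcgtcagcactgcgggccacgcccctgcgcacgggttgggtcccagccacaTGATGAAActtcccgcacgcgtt
Fgf21, chr7:45615491-45615740, minus strand: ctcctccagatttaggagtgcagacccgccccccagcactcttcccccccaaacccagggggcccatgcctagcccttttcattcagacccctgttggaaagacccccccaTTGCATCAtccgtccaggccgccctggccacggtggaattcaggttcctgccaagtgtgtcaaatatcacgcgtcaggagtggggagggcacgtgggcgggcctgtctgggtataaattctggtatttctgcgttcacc
Chac1, chr2:119350992-119351241, plus strand: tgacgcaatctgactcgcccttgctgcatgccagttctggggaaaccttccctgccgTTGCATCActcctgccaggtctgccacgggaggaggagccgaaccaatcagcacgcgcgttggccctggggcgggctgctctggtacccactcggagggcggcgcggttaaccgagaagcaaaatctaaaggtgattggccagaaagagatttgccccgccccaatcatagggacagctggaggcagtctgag
Atf3, chr1:191183334-191183583, minus strand: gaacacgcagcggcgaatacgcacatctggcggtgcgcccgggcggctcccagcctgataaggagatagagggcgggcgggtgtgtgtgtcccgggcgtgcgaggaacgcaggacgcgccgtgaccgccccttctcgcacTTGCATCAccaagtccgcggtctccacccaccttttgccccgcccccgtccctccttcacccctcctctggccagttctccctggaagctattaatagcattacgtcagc

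Fgf21, Chac1 and Atf3 shared the same 8 bases, TTGCATCA, which is the element read on the opposite strand. It lay at -139 to -132 for Fgf21, at -193 to -186 for Chac1 and at -110 to -103 for Atf3, counted from the start. Asns held the form TGATGAAA at -23 to -16, close to the start. The windows of Atf4, Ddit3, Trib3, Sesn2, Psat1 and Phgdh held no match. For Trib3 the window could not be checked against a transcript, since 0 transcripts held the bases after its start, so its orientation is unsure. The core of the antioxidant response element bound by NRF2, TGACNNNGC on either strand, was present for Asns, Sesn2 and Phgdh and in 10.2% of all windows. No window of the 10 genes held the ER stress element searched on both strands, which 0.113% of all windows held. These matches are descriptions of the letters and do not show binding.

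In livers with the Keap1 substitutions, all 10 genes had higher means in the Trsp knockout, and in livers with wild-type Keap1, 7 of 10 did. The knockout lay above its control without overlap for 4 of 10 genes with the substitutions (3.97% of all genes) and for 1 of 10 with wild-type Keap1 (3.4%). With wild-type Keap1, 0 of 10 genes passed both thresholds of the study (a log2FC beyond 1 in either direction, with an adjusted p under 0.01), as did 0.215% of the 15781 genes tested. Genes that pass both are referred to as called. At an unadjusted p under 0.05, 2 of 10 passed, Trib3 and Sesn2, against 11% of all genes. With the Keap1 substitutions, again 0 of 10 were called (0.171% of all genes), but 8 of 10 passed an unadjusted p under 0.05, all of them higher, against 6.52% of all genes in that direction. Over the 10 genes the median log2FC was 1.43, while that of all genes was -0.0049. With wild-type Keap1 the median was 0.65, with 7 genes higher and 3 lower. limma voom on the recovered reads likewise called 0 of the 10 genes in each comparison. Only Psat1 passed an adjusted p under 0.05, in the comparison with the substitutions, which 0.38% of all genes did in that direction.

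**Figure D1:**
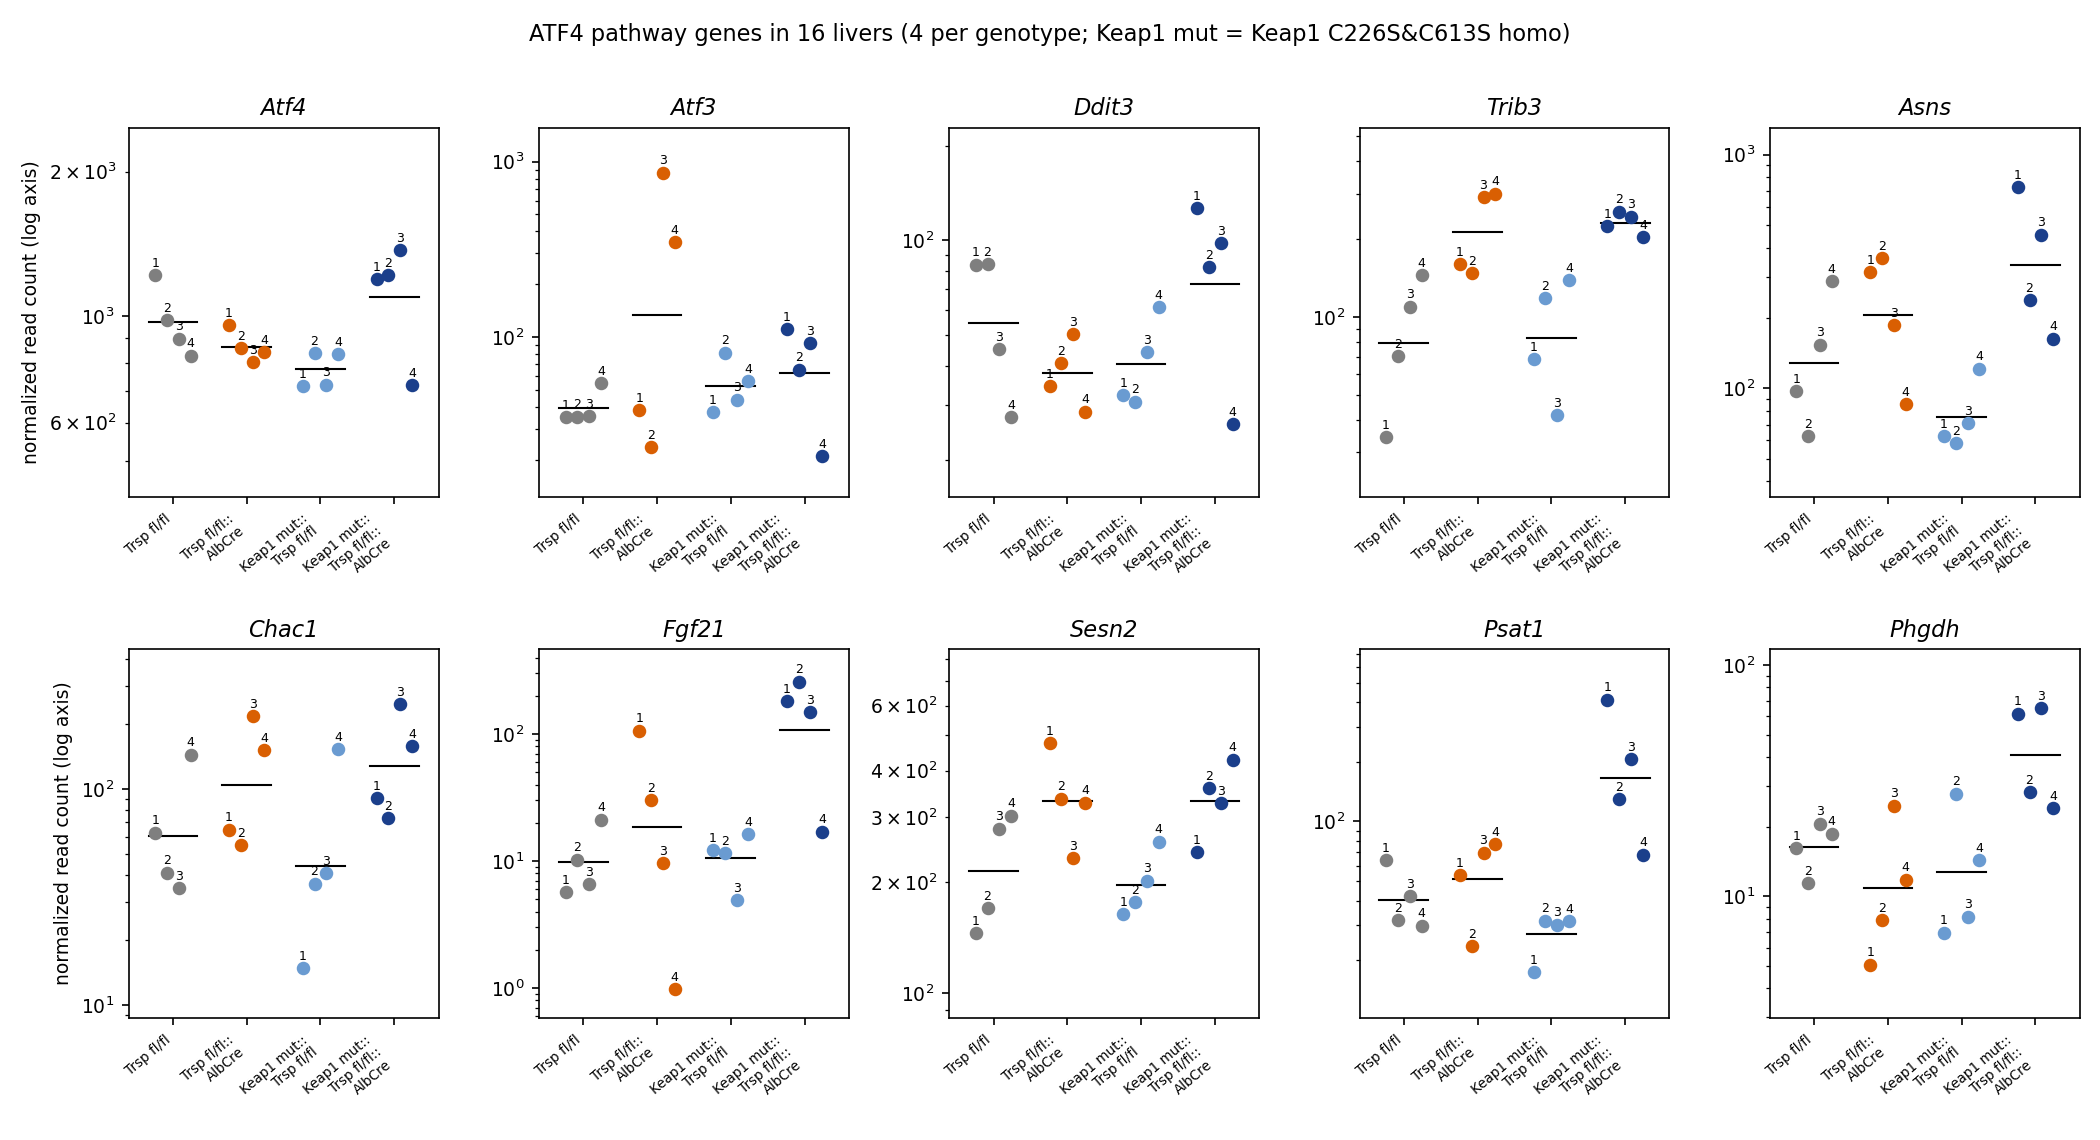
Normalized read count (log axis) of the 10 genes in each of 16 livers, by genotype. Points are livers marked with their replicate number, and the horizontal line is 2 to the power of the mean log2 value, minus 4. All 4 compound mutant livers lie above all 4 Keap1 mutant livers for Trib3, Asns, Fgf21 and Psat1, and replicate 4 of the compound mutant is its lowest liver for 8 genes.

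The mRNA of ATF4 itself was called in no comparison. Atf4 had normalized counts of 1215, 982, 897 and 827 in replicates 1 to 4 of the control, and of 959, 856, 802 and 840.5 in the Trsp knockout. It had 715, 837, 719.5 and 834 in the Keap1 mutant, and 1194, 1217, 1371 and 719 in the compound mutant. Thus 3 compound mutant livers exceeded every Keap1 mutant liver, and replicate 4 lay within their range. The log2FC of the knockout was 0.50 with the Keap1 substitutions (SE 0.17, limma adjusted p = 0.196) and -0.17 with wild-type Keap1 (SE 0.17, limma adjusted p = 0.744). Without replicate 4 of the compound mutant, the former was 0.70 (limma adjusted p = 0.013). Without replicate 1 it was 0.46 (limma adjusted p = 0.40). The test of the difference between the knockout effects gave 0.67 (SE 0.24, limma adjusted p = 0.377), and 0.87 without replicate 4 of the compound mutant (limma adjusted p = 0.049).

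Ddit3, which encodes CHOP, a transcription factor linked to cell death under prolonged stress, was like Atf4 in the compound mutant, with replicate 4 lowest. Its counts were 83.7, 84.2, 45.0 and 27.4 in the control and 34.4, 40.7, 50.4 and 28.5 in the Trsp knockout. In the Keap1 mutant they were 32.2, 30.7, 44.1 and 61.2, and in the compound mutant 127, 82.0, 98.0 and 26.0. Replicates 1 to 3 of the compound mutant were above all Keap1 mutant livers, and replicate 4 was below them all. The knockout effect was 0.78 with the substitutions (SE 0.42, limma adjusted p = 0.438) and -0.49 without them (SE 0.42, limma adjusted p = 0.698), and their difference of 1.28 had a limma adjusted p of 0.459. Without replicate 4 of the compound mutant, the effect with the substitutions was 1.23 (limma adjusted p = 0.077).

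Atf3, a stress-induced repressor and activator of the same family, was high in 2 livers of the Trsp knockout and not in the rest. Its counts there were 38.5, 23.6, 866 and 346, against 35.2, 35.3, 35.6 and 54.7 in the control. Replicates 3 and 4 carried the difference, and replicates 1 and 2 lay in or below the control range. The Keap1 mutant had 37.4, 81.5, 44.1 and 56.4, and the compound mutant 111, 65.3, 92.5 and 21.0, which overlap. The log2FC of the knockout with wild-type Keap1 was 1.66 with a SE of 0.83 (limma adjusted p = 0.486), and 0.77 without replicate 3 of the Trsp knockout. With the substitutions it was 0.23 (SE 0.83, limma adjusted p = 0.946), and -0.04 without replicate 1 of the compound mutant. Replicates 3 and 4 of the Trsp knockout also had the highest sums of 12 immediate early genes in their genotype, 18140 and 12055 against 5856 and 5332 in replicates 1 and 2, and sums of 5 dividing cell markers of 2867 and 2805 against 669 and 389. The part of these in the Atf3 values was not tested.

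Trib3, a pseudokinase that restrains ATF4 activity, was the only one of the 10 genes whose groups did not overlap in both knockout comparisons. Its counts were 34.3, 70.6, 109.7 and 145 in the control and 159.9, 148, 291 and 300.2 in the Trsp knockout. They were 68.7, 118, 41.6 and 139 in the Keap1 mutant and 225, 256, 245 and 204 in the compound mutant. The lowest knockout liver lay just above the highest control liver with wild-type Keap1, and with the substitutions the gap was wider. The log2FCs were 1.38 (SE 0.40, limma adjusted p = 0.191) and 1.43 (SE 0.40, limma adjusted p = 0.117). Their difference was 0.05, with a 95% interval from -1.16 to 1.26, which includes changes of over 2-fold in either direction.

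**Figure D2:**
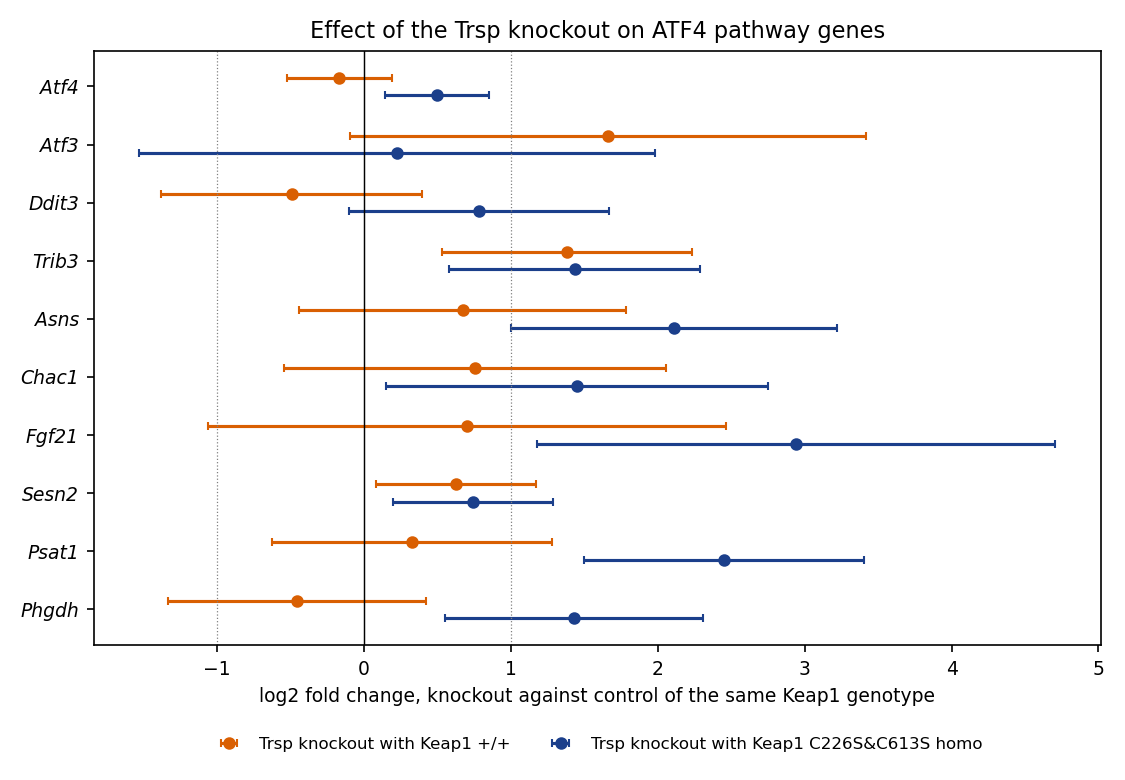
Log2FC of the Trsp knockout with wild-type Keap1 (orange) and with Keap1 C226S&C613S homo (blue) for the 10 genes, with 95% intervals from limma, 4 livers per genotype. Dotted lines mark a log2FC of 1 in each direction. Psat1 lies at 0.33 and 2.45, and Trib3 at 1.38 and 1.43.

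Of the 10 genes, Psat1 had the smallest p-value. It encodes phosphoserine aminotransferase, the middle enzyme of the pathway from 3-phosphoglycerate to serine. Its counts were 63.8, 31.9, 42.2 and 29.8 in the control, 53.7, 23.6, 69.7 and 76.8 in the Trsp knockout and 17.4, 31.6, 30.2 and 31.5 in the Keap1 mutant. The compound mutant had 409, 129.6, 206 and 68.0. All 4 compound mutant livers were above all Keap1 mutant livers, and 3 were above every liver of the other genotypes. The log2FC with the substitutions was 2.45, with a SE of 0.45 and a 95% interval from 1.50 to 3.41, and ranked 51 of 15781 genes by p (limma adjusted p = 0.0171). With wild-type Keap1 it was 0.33 (SE 0.45, limma adjusted p = 0.823). The difference between these effects, 2.12, had a SE of 0.63 and a limma adjusted p of 0.316, and the difference did not pass the test.

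The adjusted p of Psat1 depended on which livers were counted and on the processing. Without replicate 1 of the compound mutant, the liver with the highest value, the log2FC was 2.03 (limma adjusted p = 0.046). Without replicate 4, singled out by its low values of these genes, it was 2.87 (limma adjusted p = 0.0043), past both thresholds of the study. Without both it was 2.43 (limma adjusted p = 0.022). It was 2.35 without replicate 3 (limma adjusted p = 0.065). Leaving out replicate 1, 2 or 3 of the Keap1 mutant gave 2.28, 2.52 and 2.50, with limma adjusted p-values of 0.068, 0.055 and 0.051. The direction was the same in each. Over the alternative settings other than leaving out 1 library, the log2FC of Psat1 was 2.43 to 2.69. Its limma adjusted p ranged from 0.011 to 0.064 there, so it did not stay under 0.05 in all of them. Its promoter windows held neither a C/EBP-ATF element nor the antioxidant response element core.

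Phgdh, which encodes the first enzyme of the same pathway, was weakly expressed. The control had counts of 16.2, 11.4, 20.6 and 18.7, the Trsp knockout 5.06, 7.87, 24.7 and 11.8, and the Keap1 mutant 6.96, 27.8, 8.16 and 14.3. The compound mutant had 61.5, 28.2, 65.0 and 24.0. Replicates 1 to 3 of the compound mutant exceeded all other livers, and replicate 4 lay below replicate 2 of the Keap1 mutant, so the groups overlapped. The knockout effect was 1.43 with the substitutions (SE 0.41, limma adjusted p = 0.127) and -0.46 with wild-type Keap1 (SE 0.41, limma adjusted p = 0.716). The interaction for Phgdh was 1.89 (SE 0.58, limma adjusted p = 0.335).

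Asns encodes asparagine synthetase, a standard reporter of amino acid shortage. It had 97.1, 62.6, 154 and 287 counts in the control and 315, 361, 187 and 85.6 in the Trsp knockout, which overlapped widely. In the Keap1 mutant it had 62.6, 58.5, 71.0 and 121, and in the compound mutant 724, 239, 455 and 163, without overlap. The log2FC was 2.11 with the substitutions (SE 0.52, limma adjusted p = 0.0764) and 0.67 with wild-type Keap1 (SE 0.52, limma adjusted p = 0.670). Without replicate 4 of the compound mutant the former was 2.45 (limma adjusted p = 0.032), and without replicate 1 it was 1.75 (limma adjusted p = 0.21). The difference between the effects was 1.44 (SE 0.74, limma adjusted p = 0.496).

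Fgf21 encodes a hormone that the liver releases in fasting and under stress, and it had the largest log2FC of the 10 genes. Counts were 5.71, 10.2, 6.56 and 21.1 in the control and 12.2, 11.5, 4.89 and 16.2 in the Keap1 mutant. The Trsp knockout was the most scattered genotype, with 106, 30.2, 9.65 and 0.984, the last of these a single read. The compound mutant had 181, 259, 149 and 17.0. Replicates 1 to 3 of the compound mutant were the highest of all 16 livers, whereas replicate 4 was only just above the highest Keap1 mutant liver. The log2FC was 2.94 with the substitutions (SE 0.83, limma adjusted p = 0.119) and 0.70 with wild-type Keap1 (SE 0.83, limma adjusted p = 0.793). Without replicate 1 of the Trsp knockout, the value with wild-type Keap1 was -0.06. Without replicate 4 of the compound mutant the former was 3.74 (limma adjusted p = 0.021). Without replicate 1 it was 2.70 (limma adjusted p = 0.28). The difference between the effects, 2.24, had a 95% interval from -0.26 to 4.73.

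**Figure D3:**
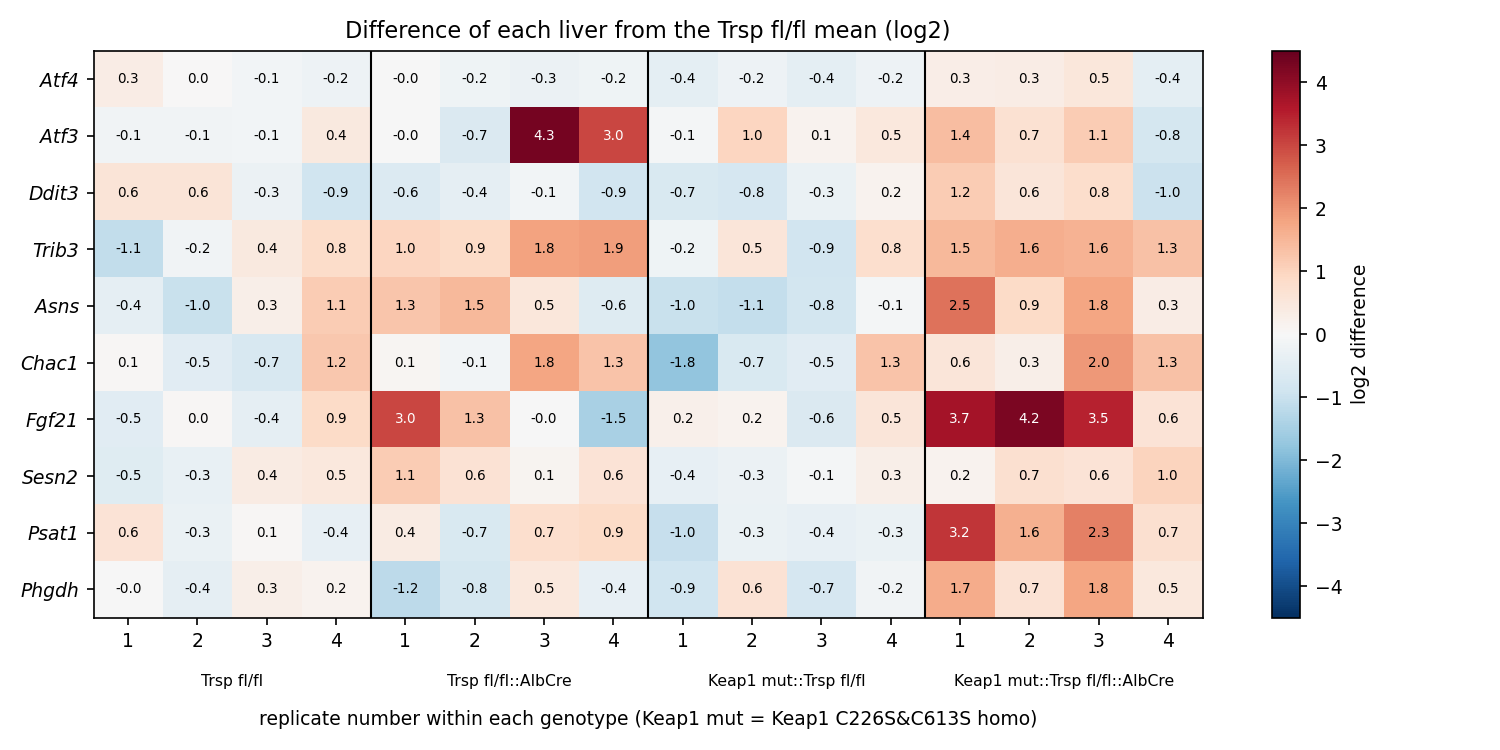
Log2 difference of each of the 16 livers from the mean of the 4 Trsp fl/fl livers, for the 10 genes. Red is higher and blue lower, with each value printed in its cell. Replicates 1 to 3 of the compound mutant are high for Asns, Fgf21, Psat1 and Phgdh, and Atf3 is high in replicates 3 and 4 of Trsp fl/fl::AlbCre.

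Chac1, which encodes a glutathione-degrading enzyme, and Sesn2, whose product restrains mTORC1 signalling, had overlapping ranges in all genotypes. Chac1 had 62.8, 41.0, 34.7 and 144 in the control, 64.8, 55.1, 217 and 152 in the Trsp knockout, 14.8, 36.4, 40.8 and 153 in the Keap1 mutant, and 90.4, 73.2, 246 and 158 in the compound mutant. The lowest and highest livers of each genotype were several-fold apart. Its knockout effect was 1.45 with the substitutions (SE 0.61, limma adjusted p = 0.311) and 0.75 with wild-type Keap1 (SE 0.61, limma adjusted p = 0.680).

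Sesn2 had counts of 146, 169.5, 278 and 302 in the control and 474, 336, 232 and 328 in the Trsp knockout. It had 164, 176, 202 and 257 in the Keap1 mutant and 241, 358, 326 and 428 in the compound mutant, where replicate 4 was the highest liver and replicate 1 the lowest. The knockout effects were of like size, 0.62 with wild-type Keap1 (SE 0.26, limma adjusted p = 0.368) and 0.74 with the substitutions (SE 0.26, limma adjusted p = 0.209). Their difference was 0.12, with a 95% interval from -0.66 to 0.89.

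With Trsp intact, the Keap1 substitutions were compared alone. In Keap1 mutant against control livers, 0 of 10 genes were called, against 0.0127% of all genes, and 0 passed an unadjusted p under 0.05, against 9.07%. Log2FCs ranged from -0.75 for Asns to 0.38 for Atf3, with a median of -0.31, 3 higher and 7 lower. In the absence of Trsp, the compound mutant was compared with the Trsp knockout, using the same compound mutant livers as above. Here 0 of 10 were called (0.57% of all genes) and 3 passed an unadjusted p under 0.05 in the higher direction (8.45% of all genes). These were Phgdh at 1.60 (SE 0.41, limma adjusted p = 0.0599), Psat1 at 1.62 (SE 0.45, limma adjusted p = 0.0745) and Fgf21 at 2.31 (SE 0.83, limma adjusted p = 0.161). Without compound mutant replicate 4 these were 1.82, 2.03 and 3.12, with limma adjusted p-values of 0.022, 0.010 and 0.022. Phgdh had 1.91 without Trsp knockout replicate 3 (limma adjusted p = 0.035) and 1.60 without Keap1 mutant replicate 2 (limma adjusted p = 0.050). Without replicate 1 they were 1.42, 1.19 and 2.07, with limma adjusted p-values of 0.17, 0.21 and 0.35. Atf4 had 0.34 (limma adjusted p = 0.304) and Ddit3 0.88 (limma adjusted p = 0.290) with all livers. Without compound mutant replicate 4 they had 0.54 (limma adjusted p = 0.019) and 1.33 (limma adjusted p = 0.033). Trib3 and Sesn2 differed by 0.11 and -0.0015, with 95% intervals from -0.74 to 0.97 and from -0.55 to 0.54.

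The interaction between knockout and substitutions was positive for 9 of the 10 genes, with a median of 0.98, and negative for Atf3 (-1.43). None of the 10 was called at the study's thresholds, against 0.057% of all genes. At an unadjusted p under 0.05, 4 passed, all positive, which were Atf4, Ddit3, Psat1 and Phgdh, against 5.46% of all genes in that direction.

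The other genes of the pathway and of related responses were examined in 10 lists by function. Of their 129 tested genes, limma called 0 in each of the 4 comparisons and in the interaction, and limma voom on the recovered reads called 0 as well. At an unadjusted p under 0.05, 16 (12.4%) passed for the knockout with wild-type Keap1, against 11% of all genes, and 6 (4.65%) for the substitutions with Trsp intact, against 9.07%. For the knockout with the substitutions 29 (22.5%) passed, against 13.6% of all genes. For the substitutions with Trsp deleted 47 (36.4%) passed, against 17.6%, and for the interaction 31 (24%), against 10.8%. Among 15 other ATF4 targets, of which 14 were tested, the knockout with the Keap1 substitutions had 11 higher and 3 lower and a median log2FC of 0.20. Nupr1, a small stress-induced chromatin protein, had 117, 86.4, 88.9 and 35.0 counts in the compound mutant against 18.3, 8.63, 17.1 and 39.2 in the Keap1 mutant. All but replicate 4 of the compound mutant lay above every Keap1 mutant liver. Its log2FC was 1.82 (SE 0.39, limma adjusted p = 0.041), or 1.61 without compound mutant replicate 1 (limma adjusted p = 0.13), and 2.03 against the Trsp knockout (limma adjusted p = 0.012), where its counts were 13.2, 10.5, 22.5 and 17.7. Cebpg, a C/EBP partner of ATF4, had 724, 780.3, 758 and 693 in the Trsp knockout and 988, 1009, 1116 and 1012 in the compound mutant, without overlap and with a log2FC of 0.48 (SE 0.10, limma adjusted p = 0.015). Atf5, a further transcription factor of the family, had a log2FC of 0.94 between the compound mutant and the Trsp knockout (SE 0.22, limma adjusted p = 0.040), and 0.89 without compound mutant replicate 1 (limma adjusted p = 0.12). The list as a whole was evenly split in that comparison, with 7 higher and 7 lower and a median of 0.11. Its interaction was also split, with 7 positive and 7 negative and a median of 0.01. With wild-type Keap1, 9 of the 14 were higher and 5 lower in the knockout, with a median of 0.36, above the median of 0.20 with the substitutions. At an unadjusted p under 0.05, 4 of these passed as higher and 1 as lower, against 11% of all genes in either direction. Cebpg was lower by a log2FC of -0.36 (limma adjusted p = 0.15).

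Aminoacyl-tRNA synthetases, which charge tRNAs with amino acids and include many ATF4 targets, leaned to one side in the compound mutant. Of 21 cytosolic synthetase genes, 18 were higher and 3 lower in the compound mutant than in the Keap1 mutant, with a median log2FC of 0.20, and 8 passed an unadjusted p under 0.05, all higher (6.52% of all genes). Sars1, the seryl-tRNA synthetase, had 749, 802, 855 and 636 counts in the compound mutant and 363, 447, 479.7 and 581 in the Keap1 mutant, without overlap. Its log2FC was 0.71 (SE 0.13, limma adjusted p = 0.018), and 0.71 without compound mutant replicate 1 (limma adjusted p = 0.054). With wild-type Keap1, 7 synthetase genes were higher and 14 lower, with a median of -0.03, and 0 passed an unadjusted p under 0.05. Without replicate 1 of the compound mutant, 20 of 21 were higher with a median of 0.21, and without replicate 4 the count was again 20 of 21 with a median of 0.22.

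Other steps of serine and one-carbon metabolism did not follow Psat1 and Phgdh as a group. Of 10 listed genes 8 were tested, with 4 higher and 4 lower in the compound mutant than in the Keap1 mutant and a median of -0.19, which was 0.02 with quantile normalization. Mthfd2, the mitochondrial folate enzyme, was the highest with 1.84 (SE 0.57, limma adjusted p = 0.15), and 2.34 without compound mutant replicate 4 (limma adjusted p = 0.036). Its counts were 98.8, 38.8, 112 and 16 in the compound mutant and 1.74, 17.3, 14.7 and 22.9 in the Keap1 mutant. Shmt2, which makes glycine from serine in mitochondria, had a log2FC of -0.51 (limma adjusted p = 0.18). Aldh1l1, a folate enzyme abundant in hepatocytes, was lower in the compound mutant than in the Trsp knockout by a log2FC of -0.99 (SE 0.21, limma adjusted p = 0.026), or -0.82 without compound mutant replicate 1 (limma adjusted p = 0.083), with counts of 7629, 11642, 8415 and 18318 against 23496, 24054, 18233 and 20507. Its values were lowest in replicates 1 and 3, the livers with the lowest hepatocyte marker sums, and replicate 4 overlapped the Trsp knockout.

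Among amino acid transporters, most listed genes had higher means in the compound mutant. Of 12 listed, 10 were tested, and 8 were higher and 2 lower in the compound mutant than in the Keap1 mutant (median 0.16). Against the Trsp knockout, again 8 were higher and 2 lower (median 0.15), and 4 passed an unadjusted p under 0.05, all higher (8.45% of all genes). Slc7a1, a transporter of cationic amino acids, had 78.0 to 132 counts in the compound mutant and 53.8 to 69.7 in the Trsp knockout, without overlap. Its log2FC of 0.74 (SE 0.18, limma adjusted p = 0.042) had an adjusted p of 0.13 by limma without compound mutant replicate 1. Slc1a4, a neutral amino acid transporter, had lower counts in both knockouts, with 306, 203, 191 and 175 against 459, 592, 287 and 546 with wild-type Keap1, and 374, 421, 357 and 258 against 568, 803, 1154 and 525 with the substitutions. Only in the first pair did the groups overlap. Its log2FCs were -1.07 (SE 0.27, limma adjusted p = 0.11) and -1.05 (SE 0.27, limma adjusted p = 0.081). Slc7a11, the cystine transporter, was below the filter on low values.

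The sensors of stress and its other arms were listed separately. For 15 genes of the eIF2 kinases, eIF2, eIF2B and the eIF2 phosphatases, the median knockout effect was -0.05 with wild-type Keap1 and 0.05 with the substitutions. Eif2b5, a subunit of eIF2B, had 534 to 593 counts in the compound mutant and 403 to 459 in the Trsp knockout, without overlap, with a log2FC of 0.40 (SE 0.10, limma adjusted p = 0.049). Without compound mutant replicate 1 it was 0.41 (limma adjusted p = 0.11). The 15 genes went both ways between these genotypes, with 9 higher and 6 lower and a median of 0.01. At an unadjusted p under 0.05, 3 passed as higher and 2 as lower, against 17.6% of all genes in either direction. For 21 ER chaperone genes and genes of the ATF6 and XBP1 arms, the median knockout effect was -0.10 with wild-type Keap1 and 0.38 with the substitutions. With the substitutions 16 were higher, and 1 passed an unadjusted p under 0.05 in that direction, as did 6.52% of all genes. Between the compound mutant and the Trsp knockout, 19 of these 21 were higher, with a median of 0.53, and 11 passed an unadjusted p under 0.05 (8.45% of all genes), among them Xbp1 with 0.53 (SE 0.15, limma adjusted p = 0.089), or 0.58 without compound mutant replicate 4 (limma adjusted p = 0.047). Without replicate 1, 6 of the 21 passed, and without replicate 3, 4. The share of all genes that passed in these fits is not given here. For 8 mitochondrial chaperones and proteases the median was 0.15 in both knockout comparisons.

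**Figure D4:**
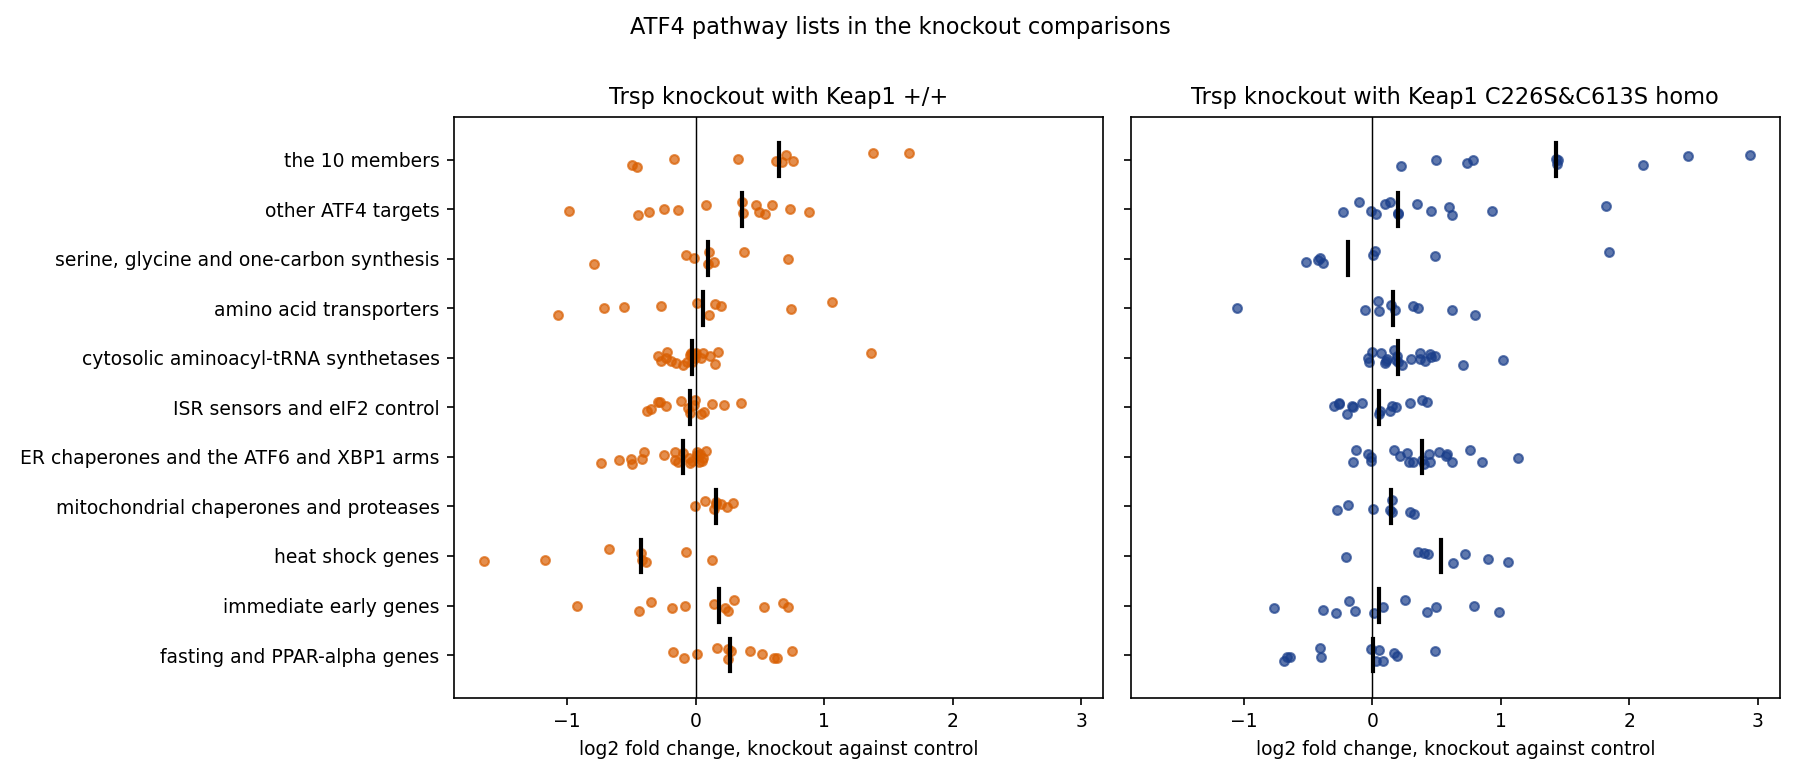
Log2FC of the Trsp knockout for the 10 genes and for 10 lists of the pathway and related responses, with wild-type Keap1 (left) and with Keap1 C226S&C613S homo (right). Points are genes, shifted vertically at random for legibility, and bars are list medians. The bar of the 10 genes lies at 0.65 on the left and at 1.43 on the right, and that of the tRNA synthetases at -0.03 and 0.20.

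Markers of cell types also differed in level between the genotypes. The hepatocyte marker sum was 855743 to 1690186 in the compound mutant and 1783687 to 2134098 in the Keap1 mutant, with 6 of 6 markers lower and a median log2FC of -0.45. The erythroid sum was 15503 to 96402 in the compound mutant and 12854 to 25541 in the Keap1 mutant, with 7 of 7 markers higher (median 0.75), and 14791 to 35226 in the Trsp knockout against 33851 to 64674 in the control, with 7 of 7 lower (median -1.23). No marker of either list was at 0 throughout. The part of these shifts in the results above was not tested. Without replicate 1 of the compound mutant, the liver at the end of both ranges, 9 of the 10 genes were higher than in the Keap1 mutant with a median of 1.35.

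Across the 16 livers, the gene most like Atf4 among those of the 10 was Ddit3, with a Pearson r of 0.81 and a Spearman rho of 0.71, and 0.77 for deviations from the genotype means. Psat1 followed with 0.72, Fgf21 with 0.64, Phgdh with 0.57 and Asns with 0.51. Chac1 (0.22), Trib3 (0.16), Sesn2 (0.04) and Atf3 (0.04) had little likeness to it. Of all genes tested, Wdr74 (0.91), Gm10131 (0.88), Arfgap3 (0.86), Eif6 (0.85) and Pelo (0.85) had the highest r with Atf4. Psat1 and Phgdh had an r of 0.78 with each other. These are descriptions over 16 livers that share genotype and library composition.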

How the data were processed

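Ribosomal RNA was removed from liver RNA before sequencing. Per the study's methods, the authors quantified the reads with Salmon against GENCODE mouse transcripts (version 30) and worked in iDEP. The deposited log2 values, per gene and library, equal log2 of size-factor-scaled reads plus 4: the lowest value was 2, and 100% of values under 100 reads came back whole within 0.05 reads. A genome build is not named in the sources used here.

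One limma model (lmFit, contrasts, eBayes with trend) held all 16 libraries with a mean per genotype. Genes had to reach a normalized count of 10 in 4 or more libraries, which kept 15781 genes and all 10 described here, each through 7 or more libraries outside the compound mutant. P-values were adjusted by Benjamini-Hochberg over these genes. A call needed a log2 fold change beyond 1 and an adjusted p under 0.01. On simulated data for the knockout with wild-type Keap1, the model recovered 188 of 200 changed genes among 15750, gave 0 a wrong direction and called 1 unchanged gene. How this recovery varied with the size of a change or with the count of a gene was not tested. Recovery at the effects and counts of the 10 genes described here was likewise not tested. The 369 rows lacking an identifier (0.274% to 0.627% of reads) were left out. The labels do not say how replicates were obtained beyond being separate samples, and each was taken here as the liver of a separate mouse. P-values therefore measure the spread between these samples.

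The 10 genes and the lists were chosen with earlier results of these data known. The rule for naming list genes took those called in any comparison and the 2 with the smallest p in each comparison, of which the text gives a part, plus the 5 genes most like Atf4. Atf5, Slc7a11, the genes given in the closing part and the label checks Gpx1, Selenow and Xist were named outside this rule, after their values were seen. Alternatives were other constants, filters and scalings, the compared groups alone, limma voom on recovered reads, a replicate block and each library left out. Leaving out 2 compound mutant libraries together was added after seeing the data. Software was R 4.3.3 with limma 3.58.1, and Python 3.11.15 with scipy 1.17.1, pandas 2.3.3 and matplotlib 3.10.9.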

Additional observations from a re-analysis of the deposited data

Results flagged for a closer look

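A total of 40 sets of 4 livers (10 genes in 4 genotypes) were searched for a liver far from its group, and 2 were found, as many as chance gives at 1 in 20. Atf3 in replicate 4 of the control had a log2 value of 5.8756, above the other 3 control livers, which lay close together. Psat1 in replicate 1 of the Keap1 mutant had a log2 value of 4.4195, below the other 3.

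The effect of the Keap1 substitutions on Psat1 was -0.51 with Trsp intact and 1.62 with Trsp deleted, a difference of 2.12 on the log2 scale. It was noticed because every Keap1 mutant liver lay below the control mean and every compound mutant liver above the Trsp knockout mean. Its test is the interaction, with a limma adjusted p of 0.316.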

How the results depend on the processing

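The main fit called 34 genes for the knockout with wild-type Keap1, 27 with the substitutions, 2 for the substitutions with Trsp intact, 90 with Trsp deleted and 9 for the interaction. With an adjusted p under 0.05 these were 60, 75, 11, 189 and 15, and 1 of the 10 genes (Psat1) passed with the substitutions. A constant of 0.5 gave 5 for the interaction, limma voom 3 for the interaction and 1 for the substitutions with Trsp intact, and the compared groups alone 46 for the substitutions with Trsp deleted. Without both compound mutant replicates 1 and 4, the counts were 4 with Trsp intact and 14 for the interaction.

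The replicate block gave 14 genes for the knockout with the substitutions. Same-numbered libraries had deviations correlated from -0.32 to 0.31 over 24 pairs (mean -0.03), and 2 of 16 libraries correlated best with their own number. These correlations cannot show whether same-numbered libraries share anything beyond the number, which the labels do not say.

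Leaving out 1 library gave 14 to 42 genes for the knockout with the substitutions, 1 to 5 for the substitutions with Trsp intact, 50 to 178 with Trsp deleted and 8 to 14 for the interaction, and 0 to 1 of the 10 genes with the substitutions (Psat1, without compound mutant replicate 4). Log2 values that crossed 0 were those of Fgf21 for the knockout with wild-type Keap1 (-0.064 to 1.43), Atf3 for the knockout with the substitutions (-0.040 to 0.69), the substitutions with Trsp intact for Trib3 (-0.31 to 0.37), Chac1 (-0.99 to 0.029), Fgf21 (-0.10 to 0.36) and Sesn2 (-0.30 to 0.047), the substitutions with Trsp deleted for Trib3 (-0.057 to 0.28), Chac1 (-0.040 to 0.61) and Sesn2 (-0.17 to 0.17), and the interaction for Trib3 (-0.26 to 0.43) and Sesn2 (-0.054 to 0.30). Sesn2 with Trsp deleted was also 0.13 with library totals, 0.0014 with quantile normalization, 0.13 with limma voom and 0.043 without compound mutant replicates 1 and 4. None of these Sesn2, Trib3, Chac1, Fgf21 or Atf3 values was called in any setting, and the cause of the changes was not tested. Library totals moved the median of all genes by 0.12 for the knockout with the substitutions and by 0.13 for the substitutions with Trsp deleted and for the interaction. Phgdh had no value at a minimum count of 50. Low counts limit Fgf21 and Phgdh.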

Other observations

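Heat shock genes, which encode chaperones of the cytosol, stood on opposite sides of 0 in the knockout comparisons. Of 8 genes, 7 were lower with wild-type Keap1 (median log2 fold change -0.42) and 7 were higher with the substitutions (median 0.53), where 6 were higher without compound mutant replicate 1. Between the compound mutant and the Trsp knockout the median was 0.73, with 7 higher, and Dnajb1 rose by 0.82 (limma adjusted p = 0.040), or 0.85 without compound mutant replicate 1 (limma adjusted p = 0.088). Hspa1b had 1.69 there (limma adjusted p = 0.081) and Hsph1 1.03 (limma adjusted p = 0.085).

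Genes of fasting and PPAR-alpha, the nuclear receptor that activates fatty acid oxidation and Fgf21, were lower for 10 of 12 in the compound mutant than in the Trsp knockout, with a median of -0.54, and for 7 of 12 with a median of -0.22 without compound mutant replicates 1 and 4. Ehhadh, a peroxisomal oxidation enzyme, had -1.03 (limma adjusted p = 0.068). The knockout medians of this list were 0.27 with wild-type Keap1 and 0.01 with the substitutions. The 12 immediate early genes had medians of 0.18 and 0.05, and the former was -0.24 without Trsp knockout replicate 3.

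All 5 B cell markers were higher with the Keap1 substitutions, with medians of 1.48 with Trsp intact and 0.96 with Trsp deleted. The 6 Kupffer cell markers were all lower in the compound mutant than in the Keap1 mutant (median -0.59), and had a median of -0.11 for the knockout with wild-type Keap1. In the former comparison 1 of the 6 passed an unadjusted p under 0.05 by limma, against 13.6% of all genes in either direction. The marker sums overlapped, with 2877 to 7493 in the compound mutant and 4961 to 12175 in the Keap1 mutant. In these knockout comparisons, with wild-type Keap1 and with the substitutions, the medians were -0.36 and 0.21 for stellate cell markers, 0.04 and -0.0079 for endothelial markers, -0.03 and 0.0049 for cholangiocyte markers and -0.42 and -0.19 for dividing cell markers. Listed genes Mthfd1l, Slc7a3 and Bcat1 were not analysed here, and Aldh1l2 was below the filter on low values.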
